A study of Glycine max with 18 samples.

Results

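Leaves of soybean taken at ZT36 were compared with leaves taken 12 h earlier, at ZT24, as a pair of opposite phases of the circadian day in constant light. The comparison used the 6 RNA-seq libraries of the pair, 3 of ZT36 and 3 of ZT24, out of 18 libraries that cover 6 time points. Genes were taken into the test where their mean TPM (transcript level scaled to the library) was at least 1 at either time point, which left 22909 of the 55589 annotated genes, or 41.2%. Of these, 17339 genes reached 1 TPM at both time points, 3852 at ZT36 alone and 1718 at ZT24 alone. The gene just inside this limit had 1.00009 TPM at its higher time point and the gene just outside it 0.999889 TPM, and another 5106 genes lay from 0.5 TPM to that limit and were not tested. A gene that reached the limit at only 1 time point was lower at the other by construction, and its difference is given as a measurement with that in mind.

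All plants were wild-type Williams 82 (Ws82), the cultivar from which the soybean reference genome was built, with no transgene, mutation or agent in either group. The first trifoliate leaf was collected every 4 h under free-running conditions, and L, M and R are described as independent biological replicates. The deposited titles count the time points from the start of sampling, so that ZT36 is labelled ZT12 and ZT24 is labelled ZT0. The sources disagree on the light regime before constant light, which was 8 h light and 16 h dark for about 18 d according to the sample descriptions, and 12 h light and 12 h dark for 14 d according to the description of the series. ZT24 is the start of the subjective day under both, whereas ZT36 falls within the subjective dark under the first regime and at its start under the second.

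The plant clock is a set of transcription factors that repress each other in turn. In *Arabidopsis*, the MYB protein LHY peaks around dawn and represses evening genes, the pseudo-response regulators (PRRs) follow through the day and repress *LHY*, and TOC1, the last of that family, and the evening complex, which contains LUX, act around dusk and in the night. In leaves, the clock also times the genes for light harvesting, light perception and growth.

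The 6 libraries held 4.93 to 6.71 Gb of aligned sequence at ZT36 and 5.40 to 6.70 Gb at ZT24. Read counts are not part of the deposited tables, so no interval from counting is given, and the precision rests on the 3 replicates. The annotated genes summed to 56.2% to 69.4% of 1000000 TPM at ZT36 and to 62.9% to 72.2% at ZT24, while the loci assembled from the reads sum to 1000000 by themselves in each library. ZT36 L stood apart from the other 5 libraries. It had the lowest of these shares, and its table listed 82417 assembled loci, 35008 of them without a strand, against 803 to 2405 without a strand in the ZT24 libraries. Across the tested genes, the log2(TPM + 1) values of 2 libraries had a Pearson's r of 0.959 to 0.972 within ZT36, of 0.973 to 0.985 within ZT24 and of 0.769 to 0.789 between the time points. The genes are not independent replicates, so these values are a description.

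Large changes ran in both directions. Between ZT36 and ZT24, 10870 genes, 47.4% of those tested, differed in limma's moderated test on log2(TPM + 1) at a Benjamini-Hochberg adjusted p under 0.05. Of these, 7468 genes (32.6%) were higher at ZT36 and 3402 genes (14.9%) were lower there. The groups of 3 libraries did not overlap for 12016 genes (52.5%), 8389 of them higher (36.6%) and 3627 lower (15.8%). The differences of single genes ranged from -6.75 to 6.05 on the log2 scale, and the median over all tested genes was 0.32. Values were analysed as log2(TPM + 1), on which the difference of a gene with low TPM is understated.

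The call for a small difference depended on how the spread was estimated. The model borrowed the spread across genes with a weight of 125 degrees of freedom, against 4 from the 6 libraries themselves, so that genes of similar level had nearly the same standard error. With the spread of each gene alone, an alternative chosen after seeing the data, 5794 genes were called, 3682 higher and 2112 lower. The adjusted p from limma is therefore given for the named genes together with that from the spread of the gene alone. ZT24 R bore most on the number of genes higher at ZT36, which was 4787 without it, whereas it was 10095 without ZT36 L.

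Quantile normalization, which gives the 6 libraries the same distribution of values, lowered the median difference to 0.097. The share of calls that were higher at ZT36 was 68.7% with TPM as deposited and 55.9% after quantile normalization, where 11428 genes (49.9%) were called, 6383 (27.9%) of them higher and 5045 (22%) lower. The excess of higher genes thus depended on the scaling. Single genes mostly kept their call. Of the 7468 genes higher at ZT36, 6180 (82.8%) were also called higher after quantile normalization, and 0 had a negative difference there. Of the 3402 genes lower at ZT36, 3283 (96.5%) were also called lower, 26 had a positive difference there, 7 of these at an unadjusted p under 0.05 in limma, and 1 was called higher. The losses were mostly among small differences. Among genes that differed by at least 1 on the log2 scale, 2626 of 2633 higher genes and 1894 of 1907 lower genes held. The higher genes that did not hold had a median difference of 0.60, and the lower ones of -0.67. Quantile normalization also added 1762 genes lower at ZT36 and 203 genes higher.

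A strict set was formed from genes called with TPM as deposited. On that scale, the call had to hold without each of the 6 libraries in turn, and the groups could not overlap. The call also had to hold after quantile normalization. The set had 6407 genes (28%), of which 4070 rose (17.8%) and 2337 fell (10.2%). Genes that gained their direction of call only after quantile normalization, 1762 lower and 203 higher, could not enter. Of the 203, 1 was called lower with TPM as deposited. The balance of rises and falls in the set therefore depends on the TPM scaling. In this set, the median difference was 1.11 for the higher genes and -1.42 for the lower ones, and 0.92 and -1.55 after quantile normalization. With the spread of each gene alone, 2960 of the 4070 higher genes and 1876 of the 2337 lower genes were called. For differences of at least 2 on the log2 scale, it was 336 of 344 higher genes and 627 of 633 lower genes.

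Among the genes called, 344 were higher and 634 were lower by at least 2 on the log2 scale, 69 were higher and 238 lower by at least 3, and 24 were higher and 83 lower by at least 4. After quantile normalization, 282 genes were higher and 705 lower by at least 2, and 23 were higher and 85 lower by at least 4. The strict set held nearly all of them, with 344 higher and 633 lower by at least 2. The predominance of falls at a difference of at least 2 was not kept with a smaller pseudocount or without the 100 genes of highest level. With a pseudocount of 0.1, 1191 genes were higher and 1198 lower by at least 2, and once the 100 genes of highest level were dropped and the others rescaled, 1152 were higher and 975 lower. At a difference of at least 4, falls were more numerous in both of these, with 93 genes higher and 241 lower and with 75 higher and 164 lower.

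**Figure D1:**
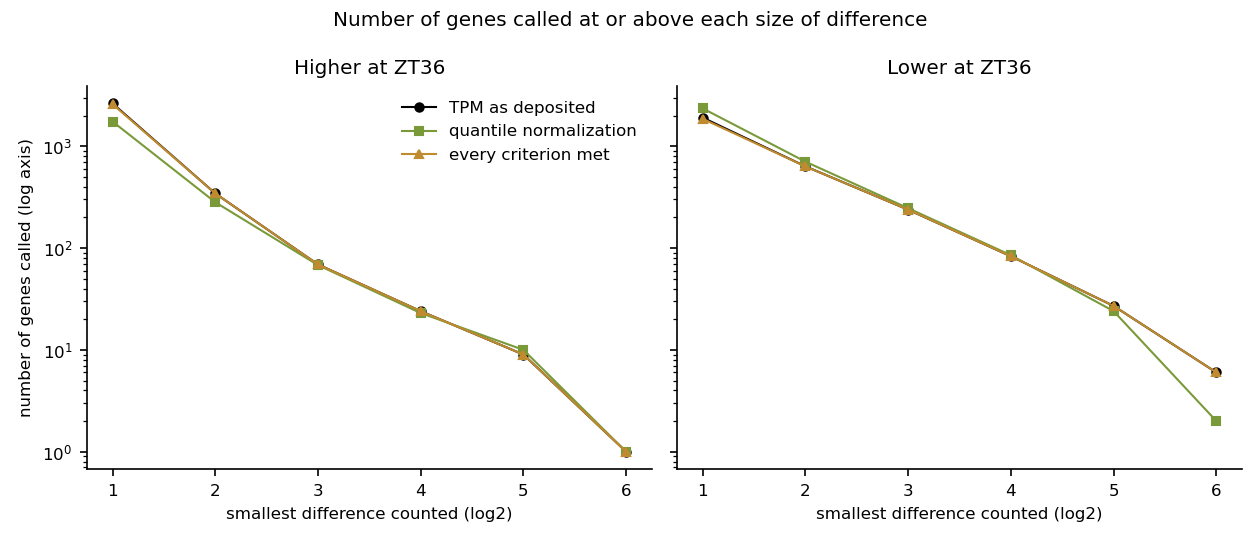
Number of genes (log axis) called higher (left) or lower (right) at ZT36 at or above each difference on the log2 scale, for TPM as deposited, after quantile normalization and in the strict set that met every criterion. The lines nearly coincide from a difference of 3 to 5, where 69 and 9 genes were higher and 238 and 27 lower with TPM as deposited.

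Some genes passed between near silence and expression. In the strict set, 25 genes had at least 5 TPM in every ZT36 library and less than 0.5 TPM in every ZT24 library, and 77 genes had less than 0.5 TPM in every ZT36 library and at least 5 TPM in every ZT24 library. The largest and most reproducible changes were ranked by the gap between the groups, which is the distance on the log2 scale from the lowest library of the higher group to the highest library of the lower group. The 12 genes with the widest gaps among the higher ones had gaps of 4.24 to 5.45 and differences of 4.55 to 6.05, or 4.53 to 6.36 after quantile normalization. They lay on 9 chromosomes, and their mean TPM was 28.9 to 643 at ZT36 and 0.0409 to 21.4 at ZT24. The 12 genes with the widest gaps among the lower ones had gaps of 5.18 to 6.43 and differences of -6.75 to -5.35, or -6.28 to -5.24 after quantile normalization. They lay on 11 chromosomes, with a mean TPM of 0.178 to 54.3 at ZT36 and 56.4 to 4410 at ZT24. All 24 were called with the spread of each gene alone, with an adjusted p of at most 0.0058 for the higher and 0.0017 for the lower genes in limma's linear model without moderation. A ranking by limma's moderated statistic shared 11 of the 12 higher genes and 10 of the 12 lower genes. The 24 genes were chosen for wide gaps in these same libraries, so these calls and this overlap were largely set by that choice.

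No names accompany the identifiers in the files, and 0 of the identifiers match the reference table used here, so only the leading genes without a name are given by identifier. Glyma.02G288700 (chromosome 2, 46881782 to 46885596, minus strand, Gmax_Wm82_a2_v1) had the widest gap of the genes that rose. It had 74.4, 67.1 and 73.8 TPM in ZT36 L, M and R, against 0.370, 0.557 and 0.392 TPM in ZT24 L, M and R. The ZT36 libraries differed little among themselves, and the groups were far apart. The difference on the log2(TPM + 1) scale was 5.66 (standard error 0.24, limma adjusted p = 8.5e-45, and 0.00042 with the spread of the gene alone), and 5.82 after quantile normalization. Glyma.10G251500 (chromosome 10, 47969725 to 47971337, plus strand) had 126, 196 and 181 TPM in ZT36 L, M and R, against 0.878, 1.98 and 1.81 TPM in ZT24 L, M and R. Replicate L was the lowest at both time points. With 6.05 (standard error 0.24, limma adjusted p = 6.2e-48, 0.0024 with the spread of the gene alone), it had the largest rise of all tested genes on the log2(TPM + 1) scale, and 6.36 after quantile normalization. With a pseudocount of 0.1, its rise was 6.71, against 7.07 for Glyma.02G288700. The ratio of the mean TPM was likewise smaller, 108 against 163 for Glyma.02G288700.

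Glyma.11G221000 (chromosome 11, 31621224 to 31624882, minus strand) had both the widest gap and the largest difference of the genes that fell. Its TPM was 36.3, 47.0 and 37.2 in ZT36 L, M and R, against 4906, 4201 and 4123 in ZT24 L, M and R. The fall was -6.75 (standard error 0.20, limma adjusted p = 5.1e-62, 0.00087 with the spread of the gene alone), and -6.28 after quantile normalization. With a pseudocount of 0.1, the fall was -6.78, against -8.58 for *GmLHY2b*. The ratio of the mean TPM was 110, against 590 for *GmLHY2b*, so the order of the largest falls depended on the scale. Glyma.18G036400 (chromosome 18, 2855303 to 2859675, plus strand) had 54.4, 55.1 and 53.5 TPM in ZT36 L, M and R, against 4595, 3672 and 3739 TPM in ZT24 L, M and R. The ZT36 libraries were nearly equal, and ZT24 L was the highest of its group, as for Glyma.11G221000. The difference was -6.17 (standard error 0.20, limma adjusted p = 2.1e-58, 0.00058 with the spread of the gene alone), and -5.61 after quantile normalization. Ranked by the gap among the genes that fell, *GmLHY2b* had rank 2 and *GmLHY1a* rank 5.

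Of the 14 genes that the paper pairs with an identifier in its text or its figures, 13 were called, 5 higher and 8 lower at ZT36, beside 32.6% and 14.9% of all tested genes. These genes were chosen by the study for their rhythm, partly on these libraries, so the count is a description. All 13 belonged to the strict set, and the 1 gene not called was *GmRVE2d*.

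The *GmLHYs* encode the morning MYB repressors, and all 4 of them fell. *GmLHY2b* (Glyma.03G261800, chromosome 3, 45502100 to 45510812, plus strand) had 0.133, 0.156 and 0.246 TPM in ZT36 L, M and R, against 106, 108 and 102 TPM in ZT24 L, M and R. The ZT24 libraries lay close together, and none of the ZT36 libraries came near them. The difference was -6.49 (standard error 0.24, limma adjusted p = 7.4e-51, 0.00022 with the spread of the gene alone), and the ratio of the mean TPM was 590. *GmLHY1a* (Glyma.16G017400, chromosome 16, 1526133 to 1539596, minus strand) had 1.94, 1.97 and 2.12 TPM in ZT36 L, M and R, against 228, 221 and 187 TPM in ZT24 L, M and R. Its ratio was smaller, 105, with a difference of -6.14 (standard error 0.24, limma adjusted p = 6.3e-50, 0.00049 with the spread of the gene alone). *GmLHY2a* (Glyma.19G260900, chromosome 19, 50396380 to 50409947, plus strand) had 0.373, 0.273 and 0.0501 TPM in ZT36 L, M and R, against 49.2, 48.3 and 43.99 TPM in ZT24 L, M and R. It fell by 5.30 (standard error 0.25, limma adjusted p = 1.5e-41, 0.0010 with the spread of the gene alone). Its ratio, 203, was larger than that of *GmLHY1a*. With a pseudocount of 0.1, its difference was also the larger of the pair, at -7.31 against -6.65 for *GmLHY1a*. *GmLHY1b* (Glyma.07G048500, chromosome 7, 4102968 to 4114174, minus strand) had 1.03, 1.07 and 0.974 TPM in ZT36 L, M and R, against 74.6, 64.1 and 54.1 TPM in ZT24 L, M and R. It fell by 4.999 (standard error 0.24, limma adjusted p = 1.0e-39, 0.0012 with the spread of the gene alone), the smallest difference of the 4 genes.

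The order of the *GmLHYs* differed between the time points. At ZT24, *GmLHY1a* had the highest TPM of the 4 genes, followed by *GmLHY2b*, *GmLHY1b* and *GmLHY2a*. At ZT36, *GmLHY1a* and *GmLHY1b* had 0.974 TPM or more in each library, and *GmLHY2a* and *GmLHY2b* 0.373 TPM or less. These low values rested on little sequence, with a mean depth per base of 0.761 to 1.49 for *GmLHY2b* at ZT36, against 493 to 648 at ZT24. After quantile normalization, the differences were -6.24 for *GmLHY2b*, -5.85 for *GmLHY1a*, -5.17 for *GmLHY2a* and -4.94 for *GmLHY1b*. The 4 genes are close paralogs, so their values are uncertain insofar as reads common to several of them were divided among them. Whether that quantification used the strand is not given in the sources used here, and reads of a gene and of an overlapping antisense transcript may not be separated.

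**Figure D2:**
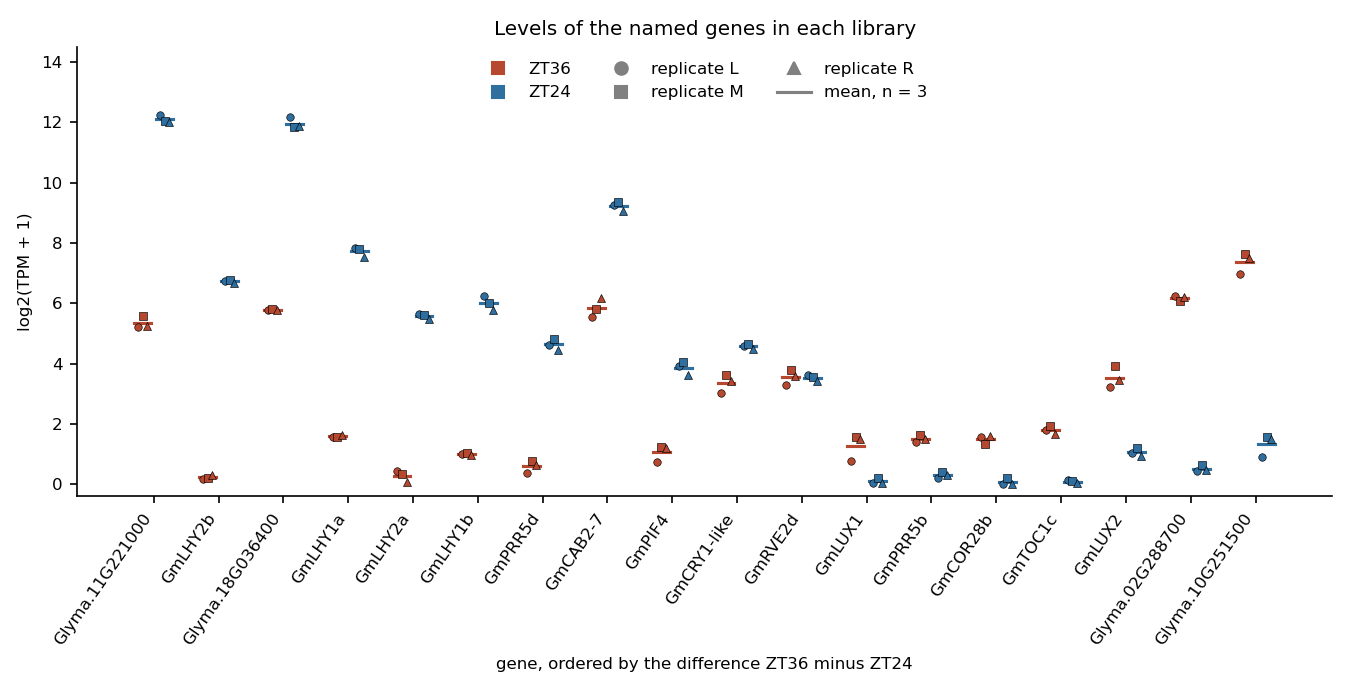
Level of the 18 named genes as log2(TPM + 1) in each library of ZT36 (red, left of each pair) and ZT24 (blue, right), with a symbol for each replicate and a line at the mean. The genes run from the largest fall, Glyma.11G221000 at -6.75, to the largest rise, Glyma.10G251500 at 6.05, and *GmRVE2d* is the one whose groups overlap.

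The PRR genes did not move together. *GmPRR5d* (Glyma.07G049400, chromosome 7, 4201368 to 4206174, minus strand) fell, with 0.287, 0.715 and 0.571 TPM in ZT36 L, M and R, against 23.8, 27.3 and 21.1 TPM in ZT24 L, M and R. The lowest ZT24 library was far above the highest ZT36 library, and the difference was -4.04 (standard error 0.25, limma adjusted p = 9.4e-31, 0.0017 with the spread of the gene alone). *GmPRR5b* (Glyma.04G228300, chromosome 4, 49758485 to 49763637, minus strand) rose, with 1.63, 2.09 and 1.85 TPM in ZT36 L, M and R, against 0.171, 0.328 and 0.245 TPM in ZT24 L, M and R. Both groups were low, yet they did not overlap, and the difference was 1.19 (standard error 0.22, limma adjusted p = 2.3e-06, 0.0047 with the spread of the gene alone). After quantile normalization, the differences were -4.13 for *GmPRR5d* and 1.06 for *GmPRR5b*. Neither time point of the pair held the highest mean of these genes. The mean TPM of *GmPRR5b* was 1.58 at ZT28, highest at ZT32 with 10.6, and 0.151 at ZT40. That of *GmPRR5d* was highest at ZT28, with 40.9.

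*GmTOC1c* (Glyma.06G196200, chromosome 6, 17608369 to 17614484, plus strand), which encodes the evening member of the PRR family, rose at ZT36. It had 2.51, 2.81 and 2.16 TPM in ZT36 L, M and R, against 0.0997, 0.0707 and 0.0331 TPM in ZT24 L, M and R. The difference on the log2(TPM + 1) scale was 1.71 (standard error 0.22, limma adjusted p = 5.6e-11, 0.0025 with the spread of the gene alone), while the ratio of the mean TPM was 36.8. The mean depth per base of this gene was 11.7 to 15.7 at ZT36 and 0.201 to 0.513 at ZT24.

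The *GmLUXs* encode the DNA-binding component of the evening complex, and both rose. *GmLUX2* (Glyma.11G136600, chromosome 11, 10366710 to 10369847, minus strand) had 8.30, 14.1 and 9.99 TPM in ZT36 L, M and R, against 1.08, 1.31 and 0.910 TPM in ZT24 L, M and R. It rose by 2.47 (standard error 0.25, limma adjusted p = 9.0e-16, 0.0074 with the spread of the gene alone), with no overlap of the groups. *GmLUX1* (Glyma.12G060200, chromosome 12, 4345126 to 4348039, minus strand) had 0.710, 1.94 and 1.84 TPM in ZT36 L, M and R, against 0.0343, 0.151 and 0.0434 TPM in ZT24 L, M and R. ZT36 L was well below the other ZT36 libraries, and it is also the library whose table stands apart. The rise of *GmLUX1* was 1.17 (standard error 0.21, limma adjusted p = 1.6e-06), and it was 1.43 without ZT36 L. With the spread of the gene alone, its adjusted p was 0.045, the highest of the 13 genes called. After quantile normalization, the differences were 2.25 for *GmLUX2* and 1.08 for *GmLUX1*.

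*GmCOR28b* (Glyma.07G213000, chromosome 7, 38508149 to 38513586, minus strand) is related to the *Arabidopsis* cold-regulated gene *COR28*, which encodes a repressor linked to the clock. It had 1.99, 1.51 and 2.02 TPM in ZT36 L, M and R, and was listed at 0 in ZT24 L and R and at 0.150 TPM in ZT24 M. All ZT36 libraries were above all ZT24 libraries. The difference on the log2(TPM + 1) scale was 1.43 (standard error 0.21, limma adjusted p = 7.6e-09, 0.0054 with the spread of the gene alone), and no ratio is given against values of 0.

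*GmCAB2-7*, *GmPIF4* and *GmCRY1-like* were lower at ZT36. *GmCAB2-7* (Glyma.16G016100, chromosome 16, 1404906 to 1407307, minus strand) encodes a chlorophyll a/b-binding protein of the light-harvesting antenna. It had 46.1, 55.8 and 70.8 TPM in ZT36 L, M and R, against 613, 662 and 532 TPM in ZT24 L, M and R. The difference was -3.38 (standard error 0.21, limma adjusted p = 4.2e-30, 0.0035 with the spread of the gene alone), and it shrank to -2.76 after quantile normalization. It was present in all 6 libraries, which are labelled as leaf, and the markers of other organs were not analysed here. *GmPIF4* (Glyma.08G303900, chromosome 8, 42217649 to 42223362, minus strand) is a relative of the bHLH factor that promotes growth in *Arabidopsis*. It had 0.684, 1.35 and 1.32 TPM in ZT36 L, M and R, against 14.2, 15.6 and 11.2 TPM in ZT24 L, M and R. The fall of -2.80 (standard error 0.25, limma adjusted p = 5.3e-19, 0.0050 with the spread of the gene alone) was -2.98 after quantile normalization. *GmCRY1-like* (Glyma.14G174200, chromosome 14, 42984699 to 42990498, plus strand), a gene of the cryptochrome family of blue-light receptors, had 7.13, 11.4 and 9.79 TPM in ZT36 L, M and R, against 22.9, 24.3 and 21.5 TPM in ZT24 L, M and R. It fell by 1.21 (standard error 0.24, limma adjusted p = 1.2e-05, 0.022 with the spread of the gene alone), the smallest fall of the 8 genes, and was at -1.35 after quantile normalization. Against the median difference of 0.32 over all tested genes, the weaker rises came to 0.86 for *GmLUX1*, 0.88 for *GmPRR5b*, 1.12 for *GmCOR28b* and 1.39 for *GmTOC1c*, and the fall of *GmCRY1-like* to -1.53. In whole leaves, fewer cells of a type and less RNA per cell cannot be told apart.

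*GmRVE2d* (Glyma.18G044200, chromosome 18, 3813589 to 3817289, minus strand) encodes a MYB factor of the REVEILLE family, which is related to LHY. It had 8.78, 12.8 and 11.2 TPM in ZT36 L, M and R, against 11.3, 10.8 and 9.77 TPM in ZT24 L, M and R. The groups overlapped. The difference was 0.025 (standard error 0.24, limma adjusted p = 0.94) and -0.18 after quantile normalization (adjusted p = 0.27). Over the day, this gene was far from constant. Its mean TPM was 10.6 at ZT24, went down to 0.404 at ZT28 and 0.376 at ZT32, was back at 10.9 by ZT36 and then reached 47.4 at ZT40, before 31.6 at ZT44. The pair of time points therefore caught it at like levels on either side of its minimum. Other genes not called for this pair also varied between time points. Of 10075 genes called on neither scale, 201 had a range of at least 2 on the log2 scale over the 6 time points on both scales, and 8 had a range of at least 4. These counts concern the range alone, not where the minimum lay, and the share over all tested genes is not given.

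**Figure D3:**
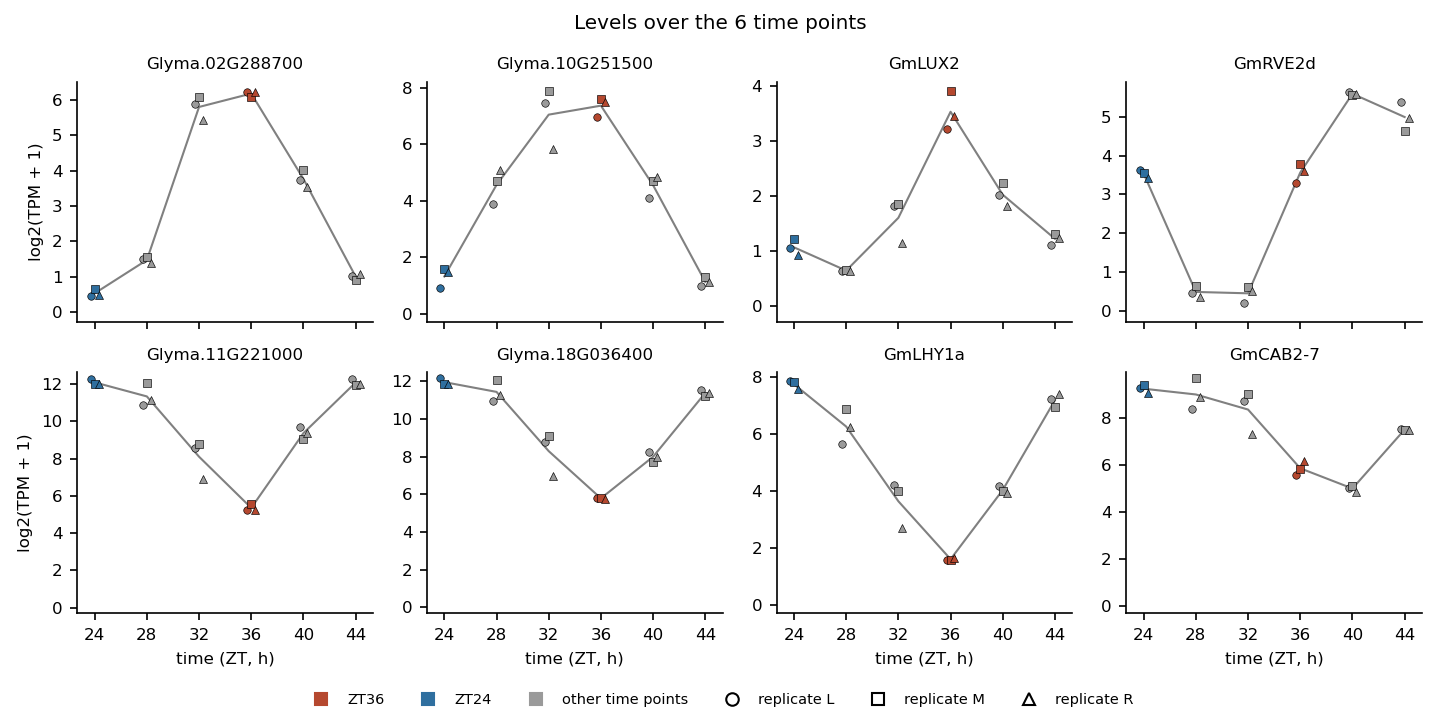
Level as log2(TPM + 1) of 8 named genes in each of the 18 libraries over the 6 time points, with ZT36 in red, ZT24 in blue, the other time points in grey, a symbol for each replicate and a line through the means. Glyma.02G288700 and Glyma.10G251500 were high at ZT32 and ZT36, *GmRVE2d* had like levels at ZT36 and ZT24 with its minimum in between, and the lower row shows genes with their minimum at ZT36 or ZT40.

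The other time points, which had no part in the contrast, showed where the changed genes reached their highest mean. Of the 4070 higher genes of the strict set, 2775 had their highest mean TPM at ZT36, 1084 at ZT40 and 158 at ZT32. After quantile normalization over the 18 libraries, an alternative chosen after seeing the data, it was 2741 at ZT36, 514 at ZT40 and 663 at ZT32. Among all tested genes, 35.4% were highest at ZT36 and 31.1% at ZT40 with TPM, against 25.6% and 10.2% after quantile normalization, so the place of ZT40 depended on the scaling. The 2337 lower genes were spread over a wider part of the day. Their highest mean TPM was at ZT24 for 1088 genes (46.6%), at ZT44 for 614 (26.3%) and at ZT28 for 541 (23.1%). After quantile normalization, it was 948 (40.6%), 571 (24.4%) and 610 genes (26.1%). Among all tested genes, the shares at ZT24, ZT44 and ZT28 were 12.0%, 10.1% and 7.36% with TPM. They were 13.9%, 16.2% and 13.5% after quantile normalization. Since the rule chose genes that differ between ZT36 and ZT24, no test is attached to these counts.

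Of the 12 genes with the widest gaps among the higher ones, 11 had their highest mean TPM at ZT36 and 1 at ZT32. Glyma.02G288700 and Glyma.10G251500 were already high at ZT32, with means of 55.9 and 155 TPM. ZT32 R, a library outside the pair with many assembled loci without a strand, was the lowest of the ZT32 libraries for both, at 42.2 and 55.6 TPM. Among the 12 lower genes, 7 had their highest mean TPM at ZT24, 4 at ZT28 and 1 at ZT44. Glyma.11G221000 averaged 4398 TPM at ZT44, nearly its mean of 4410 TPM at ZT24, and Glyma.18G036400 averaged 2690 TPM at ZT44 and 4002 TPM at ZT24.

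The second pair of time points 12 h apart within the series, ZT40 and ZT28, shares no library with the first. It was fitted in the same way over 22711 genes, of which 57% were called, 48.6% higher and 8.44% lower at ZT40. After quantile normalization, 35.6% were called, 18.8% higher and 16.8% lower. Of the 4070 higher genes of the strict set, 3865 were tested in this pair. With TPM as deposited, 3205 of them were higher and 59 lower at ZT40, and after quantile normalization 2050 were higher and 143 lower. Of the 2337 lower genes, 2187 were tested, and 240 were higher and 996 lower at ZT40 with TPM, and 104 higher and 1424 lower after quantile normalization. For differences of at least 2 between ZT36 and ZT24, 272 of 330 genes that rose were higher at ZT40 than at ZT28 after quantile normalization, and 503 of 618 genes that fell were lower. After quantile normalization, 2693 genes were called higher in both pairs, which is 42.2% of those higher at ZT36 and 63.2% of those higher at ZT40. Likewise, 2201 genes were called lower in both, 43.6% of those lower at ZT36 and 57.7% of those lower at ZT40.

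Several named genes differed between the pairs. *GmPRR5b*, which was higher at ZT36 than at ZT24, was lower at ZT40 than at ZT28 by a difference of -1.12 (limma adjusted p = 0.00035). *GmRVE2d*, not called between ZT36 and ZT24, was higher at ZT40 than at ZT28 by 5.11 (limma adjusted p = 2.5e-10). *GmCRY1-like* was lower at ZT36 than at ZT24, and its difference between ZT40 and ZT28 was 0.67 (limma adjusted p = 0.029), or 0.29 after quantile normalization, where it was not called (limma adjusted p = 0.23). The difference of Glyma.10G251500 was -0.011 between ZT40 and ZT28 (limma adjusted p = 0.98). The 4 *GmLHYs* were lower at ZT40 than at ZT28 with differences of -2.29 to -1.68, and *GmPRR5d* with -4.46. The differences between the pairs were not tested.

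**Figure D4:**
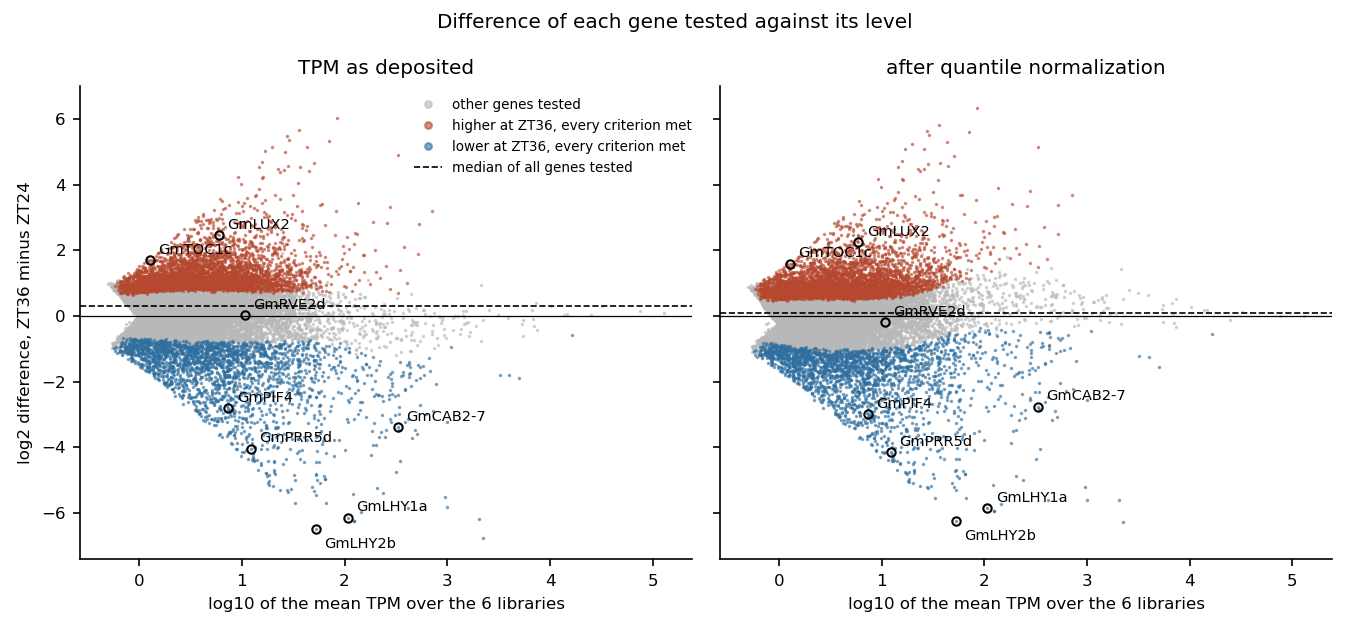
Difference between ZT36 and ZT24 on the log2 scale against the mean TPM over the 6 libraries (log10 axis) for the 22909 tested genes, with TPM as deposited (left) and after quantile normalization (right). Red and blue points are the 4070 higher and 2337 lower genes of the strict set, the dashed line is the median of all tested genes (0.32 and 0.097), and 8 named genes are circled.

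The direction of change varied with the level of the gene. Of 13477 genes with a mean of 1 to 5 TPM, 29.3% were higher and 10.5% lower at ZT36. Of the 261 genes with 100 to 500 TPM, 16.1% were higher and 57.1% lower, and of the 87 genes over 500 TPM, 6.90% were higher and 43.7% lower. This reversal did not hold on both scales. Of the 348 genes over 100 TPM, 48 were higher and 187 lower with TPM as deposited, whereas 128 were higher and 130 lower after quantile normalization. The median difference of the genes with 100 to 500 TPM was -0.74 with TPM and 0.13 after quantile normalization. In the strict set, which starts from the calls with TPM as deposited, 34 of these 348 genes were higher and 130 lower. That split therefore also depends on the TPM scaling.

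**Figure D5:**
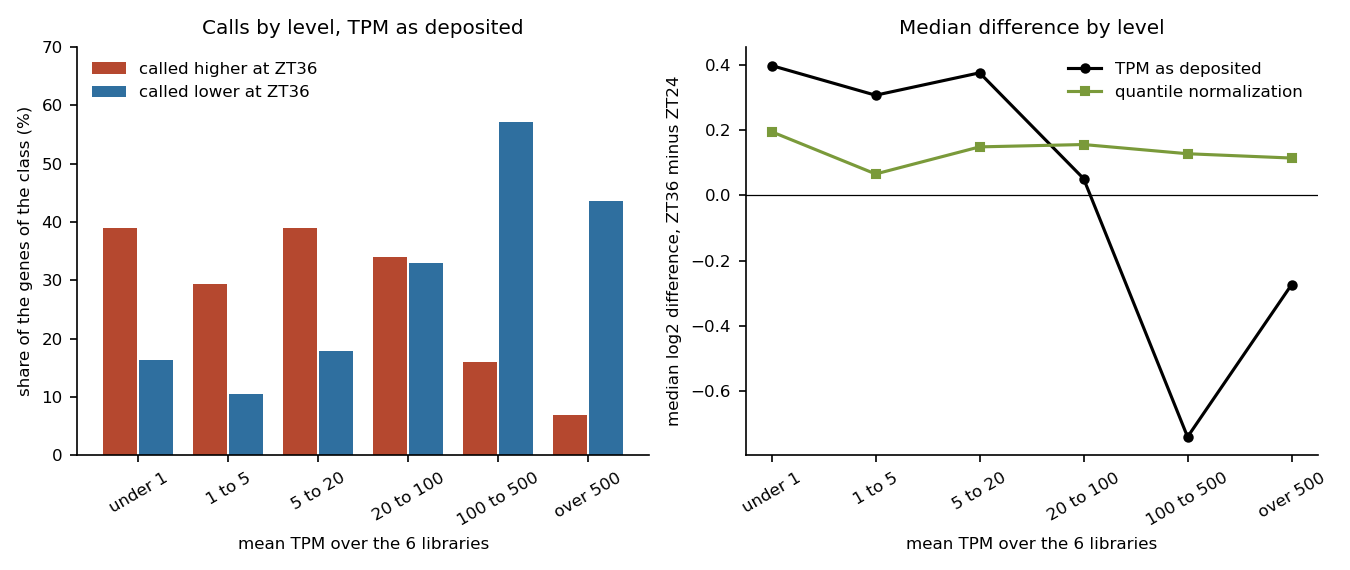
Share of genes called higher (red) and lower (blue) at ZT36 by mean TPM over the 6 libraries (left, TPM as deposited), and median difference between ZT36 and ZT24 in the same classes with TPM as deposited and after quantile normalization (right). With TPM, 57.1% of the genes with 100 to 500 TPM were lower, while their median difference was 0.13 after quantile normalization.

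In summed TPM, the falls came from fewer genes than the rises. The 4070 higher genes of the strict set summed to 50532, 66664 and 57811 TPM in ZT36 L, M and R, against 19214, 22266 and 15676 TPM in ZT24 L, M and R. They made up 9.15% of the gene TPM at ZT36 and 2.81% at ZT24. The 2337 lower genes summed to 34585, 46157 and 42144 TPM in ZT36 L, M and R, against 156231, 148887 and 138905 TPM in ZT24 L, M and R, which is 6.43% of the gene TPM at ZT36 and 21.8% at ZT24. The genes were chosen for groups that do not overlap, so the direction of these sums is set by that choice. A total of 40 lower genes held 50% of the summed fall, and 311 higher genes held 50% of the summed rise. Glyma.11G221000 and Glyma.18G036400 were among the most abundant of these lower genes at ZT24, at 4410 and 4002 TPM.

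Some of the named genes that fell lie near each other on a chromosome. *GmCAB2-7* and *GmLHY1a* are 118825 bases apart on chromosome 16, with 12 annotated genes in between. Of the 9 of these that were tested, 2 were higher and 1 was lower at ZT36, with differences of -1.19 to 2.08. *GmLHY1b* and *GmPRR5d* are 87193 bases apart on chromosome 7, with 8 genes in between. Of the 5 tested, 3 were higher and 1 was lower, from -1.08 to 2.64. Among all tested genes, 32.6% were higher and 14.9% lower, and the counts between the named genes are too small to be set apart from these shares.

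Across the genome, 10278 pairs of neighbouring genes without overlap were tested. In 2411 pairs both genes were called, and in 1671 of these (69.3%) both had the same direction, where the shares of higher and lower calls alone would give 57.0%. Neighbouring genes are not independent, and no test is attached. The share of tested genes in the strict set ranged from 15.7% to 20.2% per chromosome for higher genes, and from 6.83% on chromosome 20 to 11.7% for lower genes. The median span from the first to the last annotated base was 3539.5 bases for the higher genes of the strict set, 3168 bases for the lower genes and 3961 bases for all tested genes.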

How the data were processed

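Total RNA depleted of ribosomal RNA was sequenced from leaves of wild-type Ws82. Per the paper and the submitters' notes, the authors used *Trimmomatic* for trimming, *HISAT2* 2.2.1 for alignment to Gmax_Wm82_a2_v1 and *StringTie* for the levels of annotated genes and of loci assembled from the reads, library by library. The deposited tables give coverage, FPKM and TPM, the last scaled by the authors so that the assembled loci alone sum to 1000000. No read counts are given, so no count model was used. Coverage divided by FPKM gave the aligned sequence.

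Lines of a gene were summed, and genes with a mean of at least 1 TPM at either time point were tested on log2(TPM + 1) in R 4.3.3 with the lmFit and trended eBayes functions of limma 3.58.1 (ZT36 minus ZT24; 3 against 3 libraries; Benjamini-Hochberg adjustment; threshold 0.05). With TPM as deposited, P-values from limma rest on a spread that was mostly borrowed across genes (125 degrees of freedom against 4). After quantile normalization, they rest on a spread between these libraries that was borrowed less (6.38 degrees of freedom against 4). Those from the spread of each gene alone rest on its own libraries. Groups were taken from the titles of the samples, and 0 columns belonged to other samples. Summaries used pandas 2.3.3 and numpy 2.4.6 under Python 3.11.15, and plots matplotlib 3.10.9.

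Alternatives were quantile normalization, rescaling of gene TPM to 1000000, leaving out the 100 highest genes, FPKM, a pseudocount of 0.1, a filter of 5 TPM, no filter, eBayes without trend, a fit of all 18 libraries, each library left out in turn and a replicate block. The spread of each gene alone, on either scale, quantile normalization without ZT36 L, and peak times after quantile normalization were added after seeing the data. Genes were named where the text or the figures of the paper give an identifier (14 genes) or where they had the widest gap in the strict set (12 per direction, of which a pair per direction is printed if unnamed). The members, the named genes and the gene lists were chosen with earlier results of these data known. A table of 59048 RefSeq genes (Glycine_max_v4.0) matched 0 of the identifiers, so lists of genes by product and promoter motifs were not run, and no sequence is printed.

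In simulated data for ZT36 minus ZT24 with the measured spread of 22909 genes, 200 of which had less than the median spread and were changed, 100% were found at a change of 2 on the log2 scale, with a median difference of 1.97 and 4.31% unchanged genes among the calls. At a change of 1, 0% were found, with a median difference of 0.988. The simulation changed only 200 genes and drew each gene with its own measured spread, whereas 10870 genes were called in the data. The shares found therefore do not carry over to the data, where 2633 higher and 1907 lower genes were called at a difference of at least 1.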

Additional observations from a re-analysis of the deposited data

How the results depend on the processing

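The number of genes called was 10870, and it moved to 5726 with a filter of at least 5 TPM, which tested 8960 genes, to 16700 of 34620 genes without the 100 genes of highest level, and to 5794 with the spread of each gene alone. Genes higher at ZT36 numbered 3674 with the filter, 12884 without those 100 genes, 3682 with the spread of each gene alone and 4775 with that spread after quantile normalization. They ranged from 4787 to 10095 with 1 library left out. Genes lower at ZT36 numbered 2052 with the filter and 2112 with the spread of each gene alone, and 2757 to 3312 with 1 library left out. Differences of at least 2 were called for 2389 genes with a pseudocount of 0.1 (1191 higher, 1198 lower) and for 2127 without those 100 genes (1152 higher, 975 lower), and 530 genes were higher by at least 2 after rescaling. The filter and its counterpart change how many genes are tested; the causes of the other shifts were not tested. FPKM, no trend, no filter, all 18 libraries in the fit and rescaling kept the total within 1.5 times.

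Libraries with the same letter did not deviate together (r of 0.179 for L, -0.121 for M and -0.0119 for R across genes), so the letters were not taken to pair the samples. With a replicate block, 12230 genes were called, 8540 higher and 3690 lower.

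Of 317 values of the 17 named genes other than *GmRVE2d* under the alternatives, 317 kept their direction and their call. The difference of *GmRVE2d*, 0.025, was -0.18 after quantile normalization with either estimate of the spread, -0.16 after quantile normalization without ZT36 L, and -0.089 to 0.16 with 1 library left out. It was called under none of these. Depth limits the genes of low TPM, such as *GmLHY2b* at ZT36. No group has more than 3 libraries, so single libraries were not tested against their group.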
